A study of Mus musculus with 6 samples.

Results

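Expression of 10 genes of interleukin-6 and interleukin-10 signalling was examined in macrophages of mouse epididymal fat: the cytokines Il6, Il10, Osm and Lif, the receptor chains Il6ra, Il6st, Il10ra and Il10rb, the transcription factor Stat3 and the feedback inhibitor Socs3. The genes were chosen by symbol; each was carried by 1 transcript cluster (the probe set that stands for a gene) of the array, so all 10 of 10 were measured, among 30142 genes in all. Male C57BL/6J mice were put at 6 weeks of age on normal chow (NCD, lean) or on a 60% fat diet (HFD, obese) and were kept on it for 16 weeks, to an age of 22 weeks; no allele or agent other than diet is labelled. Cells were taken from collagenase-digested fat by magnetic selection with an antibody to the macrophage surface antigen encoded by Adgre1. Each diet had 3 pools, of 20 mice each for NCD and 10 mice each for HFD, and each pool gave 1 array (NCD1 to NCD3 and HFD1 to HFD3), whose values are listed below in that order. Replicates were therefore pools, and how far single mice differed is not known from these arrays.

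Interleukin-6, oncostatin M (Osm) and leukaemia inhibitory factor (Lif) signal through receptors that share the chain gp130, the product of Il6st. Interleukin-10 binds a receptor of its own, built from the products of Il10ra and Il10rb. Both routes activate Janus kinases and STAT3, and STAT3 switches on Socs3, whose protein binds gp130 and restrains interleukin-6 but not interleukin-10 signalling. In macrophages interleukin-10 limits the production of inflammatory cytokines, and interleukin-6 in fat has been tied both to inflammation and to alternative activation. The arrays measured transcripts; neither cytokine protein nor STAT3 phosphorylation was measured.

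RefSeq promoter windows (build GRCm38.p6) were matched by symbol for 6 of the 10 genes, and the 250 bases before the start were searched on both strands for 4 motifs. These were TTCNNNGAA for STAT factors, TGANTCA for AP-1, GGANTTTCC for NF-kappaB and TTGNNCAA for C/EBP, none of which overlaps another in the windows below. The window of Il6 is shown because Il6 differed most between pools and its promoter is a textbook case of a gene read by several factors; it lies on the plus strand at chr5:30012864-30013113, and capitals mark the AP-1 match (first base 249 before the start), the C/EBP match (128 before the start) and the NF-kappaB match (43 before the start).
Il6: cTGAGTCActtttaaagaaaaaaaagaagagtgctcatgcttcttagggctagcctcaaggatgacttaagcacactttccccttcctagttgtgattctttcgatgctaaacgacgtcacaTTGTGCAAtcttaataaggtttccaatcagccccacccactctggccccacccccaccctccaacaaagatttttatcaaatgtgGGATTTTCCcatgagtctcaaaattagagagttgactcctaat
For Socs3, a known STAT3 target, only the STAT match is shown, in capitals, on the minus strand at chr11:117969501-117969530; the window in the table lies inside the bounds of the gene, at an inner start.
Socs3: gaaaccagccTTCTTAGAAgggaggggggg
Of 32841 windows of the same length, 7.02% held the STAT motif, 6.75% the AP-1 motif, 1.07% the NF-kappaB motif and 5.65% the C/EBP motif. The window of Lif held 1 AP-1 match, with its first base 228 before the start. The windows of Il6ra, Il6st and Stat3 held none of the 4 motifs, which says only that these letters are not in these windows; 54 bases of the Stat3 window lie inside the bounds of the gene.

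Values are log2 expression, and differences are HFD minus NCD with the standard error of limma's fit over all genes. A gene was called at a Benjamini-Hochberg adjusted p below 0.05. Of 30142 genes, 2359 (7.83%) were called, 1494 higher and 865 lower after HFD; leaving out NCD1 raised the count to 4713, and leaving out NCD2, NCD3, HFD1, HFD2 or HFD3 gave 474, 1790, 1018, 442 and 456. With each array centred on its median 2573 were higher and 693 lower, 78.8% higher against 63.3%. That centring moved the median difference of all genes from 0.01 to 0.10. The defining macrophage markers were present on every array: the mean level of 10 markers was 14.26 to 14.98 on NCD and 14.93 to 15.12 on HFD arrays, with 2 called higher, 1 lower and 7 not called. Transcripts of other cells were present too, and all 9 endothelial and 9 smooth muscle or pericyte markers lay above the background level of 6.23 log2. Endothelial markers averaged 12.10, 14.02 and 14.55 on the NCD arrays and 12.53, 11.14 and 11.07 on the HFD arrays. On a bulk array, fewer cells of a type and less RNA per cell cannot be told apart.

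Among the 10 genes, the inhibitor Socs3 fell after HFD and 9 were not called, with 0 higher. Il6st and Stat3 had lower values on all 3 HFD arrays than on any NCD array, and Il10rb had higher ones, but their adjusted p missed the threshold. Il6, Osm, Lif, Il6ra, Il10 and Il10ra overlapped between the diets. Called genes were thus 1 of 10, beside 7.83% of all genes (4.96% higher and 2.87% lower); 5 of the 10 were called without NCD1, beside 15.6% of all genes, and 3 without NCD3, beside 5.94%. Diet groups that did not overlap were 4 of 10, 3 below and 1 above, beside 30.6% of all genes (13% below and 17.6% above). At an unadjusted p below 0.05 in limma, 2 genes (Il10 and Il10rb) were higher and 3 (Il6st, Stat3 and Socs3) lower, beside 13.3% and 11.1% of all genes. The median difference was −0.39 over the 10 genes and 0.01 over all genes.

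**Figure D1:**
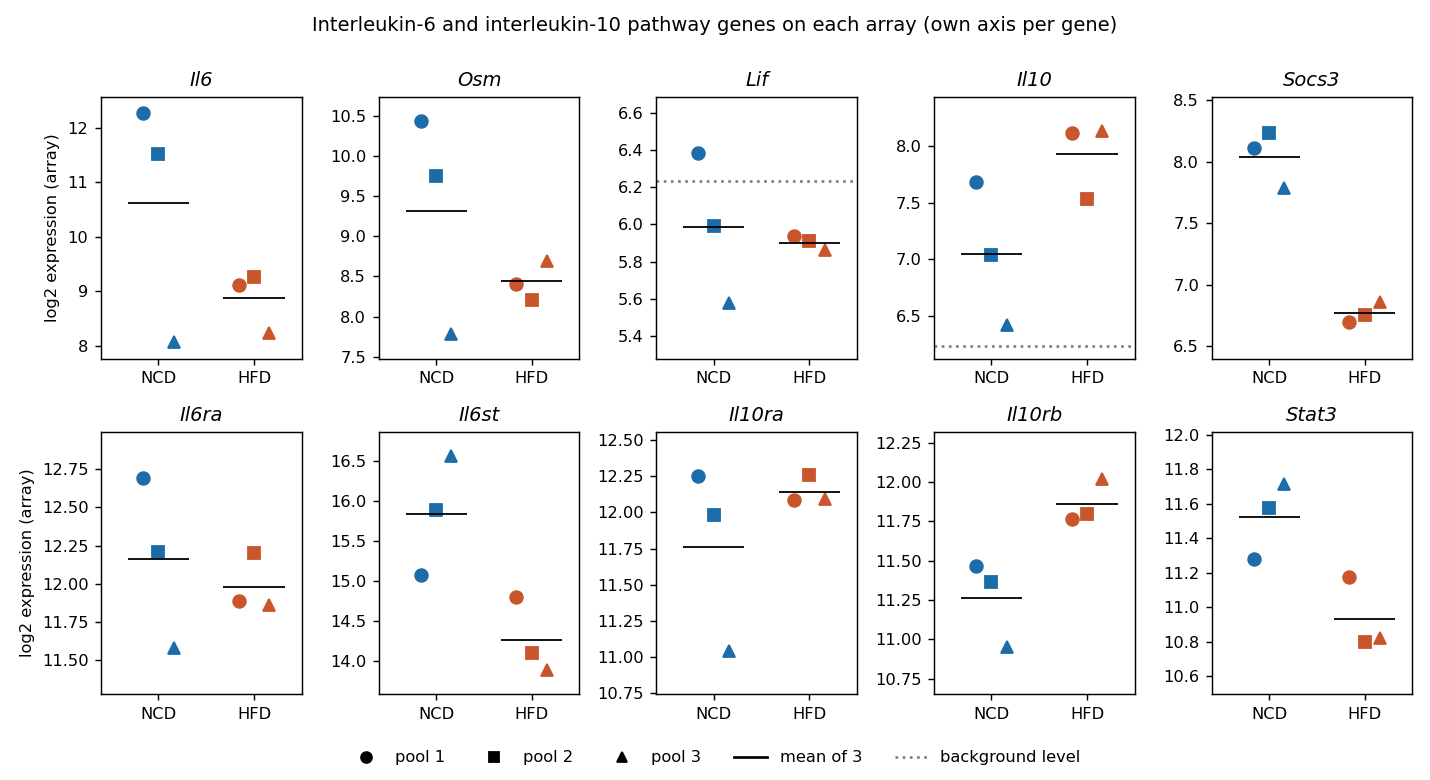
Log2 expression of the 10 genes on each array, with its own vertical axis per gene; blue points are the 3 NCD pools, orange points the 3 HFD pools, the bar is the mean of 3 and the dotted line the background level of 6.23. Socs3 separates the diets with a gap, at 7.78 to 8.23 on NCD and 6.70 to 6.86 on HFD arrays, while the NCD points of Il6 run from 8.06 to 12.27.

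Socs3 stood at 8.11, 8.23 and 7.78 on the NCD arrays and at 6.70, 6.76 and 6.86 on the HFD arrays. All HFD arrays lay below all NCD arrays, and each diet's pools lay close together. The gene fell 2.41-fold (−1.27 ± 0.13, 95% interval −1.59 to −0.95, adjusted p = 0.00652). It kept its call without each array in turn, at −1.40 to −1.18, with adjusted p between 0.00699 and 0.0431. The HFD mean of 6.77 ± 0.08 (SD, n = 3) lay near the background level of 6.23, which leaves the size of the fall uncertain. Immediate early and heat shock genes, which tissue digestion can induce, differed in the same direction: 11 of 21 measured genes fell and the other 10 did not pass the test, with 0 rises (15 lower and 1 higher at an unadjusted p below 0.05) and a median of −1.08. Their mean level was 13.87, 13.86 and 13.06 on NCD and 12.48, 12.49 and 12.11 on HFD arrays; their part in the Socs3 result was not tested.

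Of the cytokines, Il6 differed most between pools. Its values were 12.27, 11.51 and 8.06 on the NCD arrays and 9.11, 9.27 and 8.23 on the HFD arrays. NCD1 and NCD2 were higher than every HFD array, and NCD3 was lower than every HFD array. The range was 18.5-fold within NCD and 2.05-fold within HFD. Other transcripts, named here after their values were seen, were highest on NCD1 as well. Nfkbiz, which encodes a nuclear co-regulator of Il6, stood at 14.76, 13.77 and 12.06 on NCD and at 12.65, 12.68 and 12.05 on HFD arrays. Nr4a1, an immediate early gene on the tissue digestion list, stood at 16.02, 15.59 and 13.06 on NCD and at 14.23, 14.08 and 13.47 on HFD arrays. Genes of that list differed in their highest array, some by a narrow step: Fosb and Jun on NCD1, Fos and Zfp36 on NCD2, Klf2 and Hspb1 on NCD3. Among the NCD arrays, all measured genes of the list but Klf2 and Hspb1 were lowest on NCD3, as Il6 was. The list mean was 13.87, 13.86 and 13.06 on NCD arrays and 12.49 or less on HFD arrays. B and plasma cell markers were highest on NCD1, at a mean of 10.39 against 8.75 or less on the other 5 arrays. The part of these in the Il6 values was not tested. The difference of −1.74 ± 1.04 (95% interval −4.23 to 0.74, adjusted p = 0.371) was not called. Without NCD3 it was −3.02 and called (adjusted p = 0.0186), and without NCD1 it was −0.92 (adjusted p = 0.624).

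Osm, an interleukin-6 family cytokine made by myeloid cells, ranked the NCD arrays as Il6 did and the HFD arrays in the reverse order. It stood at 10.45, 9.75 and 7.78 on the NCD arrays and at 8.41, 8.21 and 8.69 on the HFD arrays. NCD3 was again the lowest of the 6 arrays. The difference of −0.89 ± 0.64 (95% interval −2.41 to 0.63, adjusted p = 0.464) was called only without NCD3 (−1.66, adjusted p = 0.0262), and it was −0.32 without NCD1. Neutrophil markers averaged 7.11, 7.46 and 7.32 on NCD and 6.29, 6.20 and 8.55 on HFD arrays. Of these 8 markers, 5 had a mean above background. HFD3 was the highest of the HFD arrays in both Osm and the neutrophil mean. Among the NCD arrays, NCD1 was highest in Osm and lowest in the neutrophil mean. The part of neutrophils in the Osm values was not tested.

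Lif, a cytokine that signals through Lifr and gp130, was the 1 gene of the 10 with a mean below the background level. Its values were 6.39, 5.99 and 5.58 on NCD and 5.94, 5.91 and 5.86 on HFD arrays, so only NCD1 exceeded 6.23. The difference was −0.08 ± 0.19 (95% interval −0.54 to 0.38, adjusted p = 0.849), was 0.12 without NCD1 and was 0.0076 with median centring. A difference in Lif was not detectable at this signal.

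Il10, the ligand of the receptor built from Il10ra and Il10rb, stood at 7.69, 7.04 and 6.42 on the NCD arrays and at 8.12, 7.54 and 8.14 on the HFD arrays. NCD1 lay above HFD2, so the diets overlapped by that pair of arrays, and NCD3 was the lowest of the 6, as for Il6. At 6.42, NCD3 lay near the background level of 6.23, which leaves the size of the difference uncertain. The difference of 0.88 ± 0.33 (1.85-fold, 95% interval 0.09 to 1.68) was not called (adjusted p = 0.163), and the interval is not adjusted over genes. It was called without NCD1 (1.20, adjusted p = 0.0309) and was 0.57 without NCD3.

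Among the receptor chains, Il6st had the largest difference. Its values were 15.08, 15.89 and 16.57 on NCD and 14.81, 14.10 and 13.89 on HFD arrays. The diets did not overlap, though the step from NCD1 to HFD1 was smaller than the range within either diet. The difference of −1.58 ± 0.41 (2.99-fold lower, 95% interval −2.55 to −0.61) had an adjusted p of 0.0666. It was called without NCD1 (−1.96, adjusted p = 0.0148), with array weights (−1.58, adjusted p = 0.0283) and with genes below background dropped (adjusted p = 0.0464), and was −1.22 without NCD3 (adjusted p = 0.111).

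Il6ra, the chain that binds interleukin-6 itself, was nearly level. It stood at 12.69, 12.21 and 11.58 on NCD and at 11.89, 12.20 and 11.86 on HFD arrays. NCD1 and NCD3 lay on either side of all HFD arrays. The difference was −0.18 ± 0.28 (95% interval −0.85 to 0.49, adjusted p = 0.766), and it changed sign without NCD1 (0.09, adjusted p = 0.856).

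For the interleukin-10 receptor, Il10rb, the chain shared with other cytokines of the family, stood at 11.47, 11.36 and 10.95 on NCD and at 11.76, 11.80 and 12.02 on HFD arrays. All HFD arrays were above all NCD arrays. The difference of 0.60 ± 0.17 (1.52-fold, 95% interval 0.20 to 1.00) had an adjusted p of 0.0822, and was called without NCD1 (0.70, adjusted p = 0.0389). Median centring also gave a call for Il10rb (0.69, adjusted p = 0.0392), as did array weights (0.55, adjusted p = 0.0463). Il10ra, the ligand-binding chain, was at 12.25, 11.98 and 11.05 on NCD and at 12.08, 12.26 and 12.09 on HFD arrays. NCD3 alone lay apart, and without it the difference of 0.38 ± 0.30 (95% interval −0.34 to 1.11, adjusted p = 0.508) became 0.03.

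Stat3, the transcription factor on which both routes converge, stood at 11.28, 11.57 and 11.71 on NCD and at 11.17, 10.80 and 10.82 on HFD arrays. The diets did not overlap, though NCD1 and HFD1 were close. The difference of −0.59 ± 0.17 (1.51-fold lower, 95% interval −0.99 to −0.19) had an adjusted p of 0.0860. It was called without NCD1 (−0.71, adjusted p = 0.0303) and with array weights (−0.61, adjusted p = 0.0454).

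**Figure D2:**
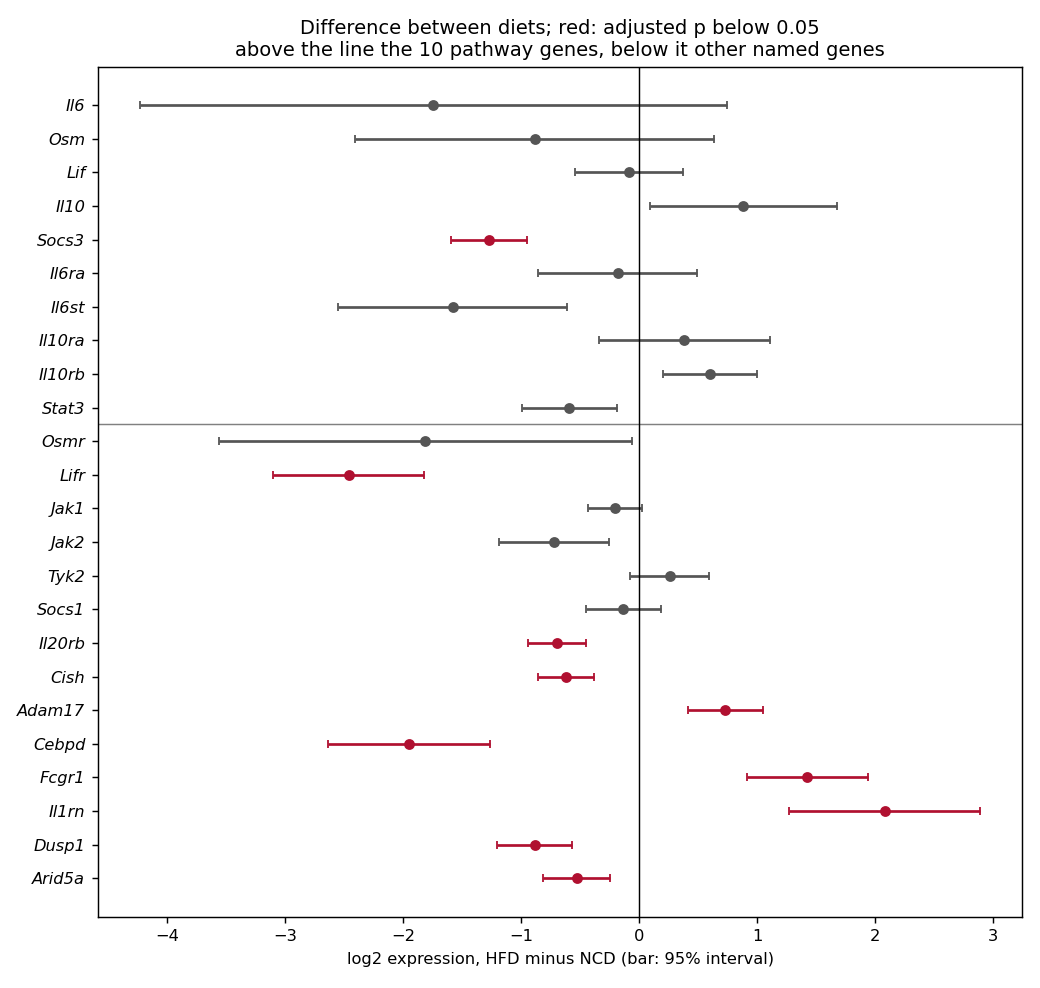
Difference between diets (log2 HFD minus NCD) with its 95% interval from limma, for the 10 genes above the line and other named pathway genes below it; red marks an adjusted p below 0.05. Socs3 at −1.27 is the red point above the line, and Lifr at −2.46 lies lowest of all genes drawn.

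Apart from Socs3, which separated by diet, the 10 genes fell into patterns by array rather than by diet alone. NCD3 was the lowest of the 6 arrays for 7 of them (Il6, Il6ra, Il10, Il10ra, Il10rb, Osm and Lif), beside 25.7% of all genes. For Il6st and Stat3 it was the highest. The macrophage markers were lowest on NCD3 too, at a mean of 14.26 against 14.87 or more on the other 5 arrays, and the endothelial markers were highest there. Il6st ranked the arrays from NCD3 through NCD2, NCD1, HFD1 and HFD2 to HFD3. The endothelial mean gave the same order but for NCD1 and HFD1, which traded places. The smooth muscle and pericyte mean gave exactly the order of Il6st. It stood at 10.60, 11.55 and 12.55 on NCD and at 9.18, 8.29 and 8.04 on HFD arrays. Of the 9 smooth muscle and pericyte markers 7 fell and 2 were not called. Of 9 endothelial markers 0 were called (7 lower and 0 higher at an unadjusted p below 0.05). Of 7 mesothelial markers all 7 fell, though only 3 had a mean above background and Msln, Wt1, Krt19 and Muc16 did not. The mesothelial mean was highest on NCD1, at 8.21, where Il6st and Stat3 were lowest of the NCD arrays. The part of other cells in the Il6st and Stat3 values was not tested.

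The pools of lean mice were farther apart than those of obese mice. The range over the 3 pools was wider in NCD than in HFD for all 10 genes, and for 76.3% of the 15747 genes above background. Its median over the 10 genes was 1.16 log2 in NCD and 0.36 in HFD, against 0.38 and 0.22 over genes above background. Il6 and Osm had an NCD range above 2 log2, as had 2.42% of genes above background.

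**Figure D3:**
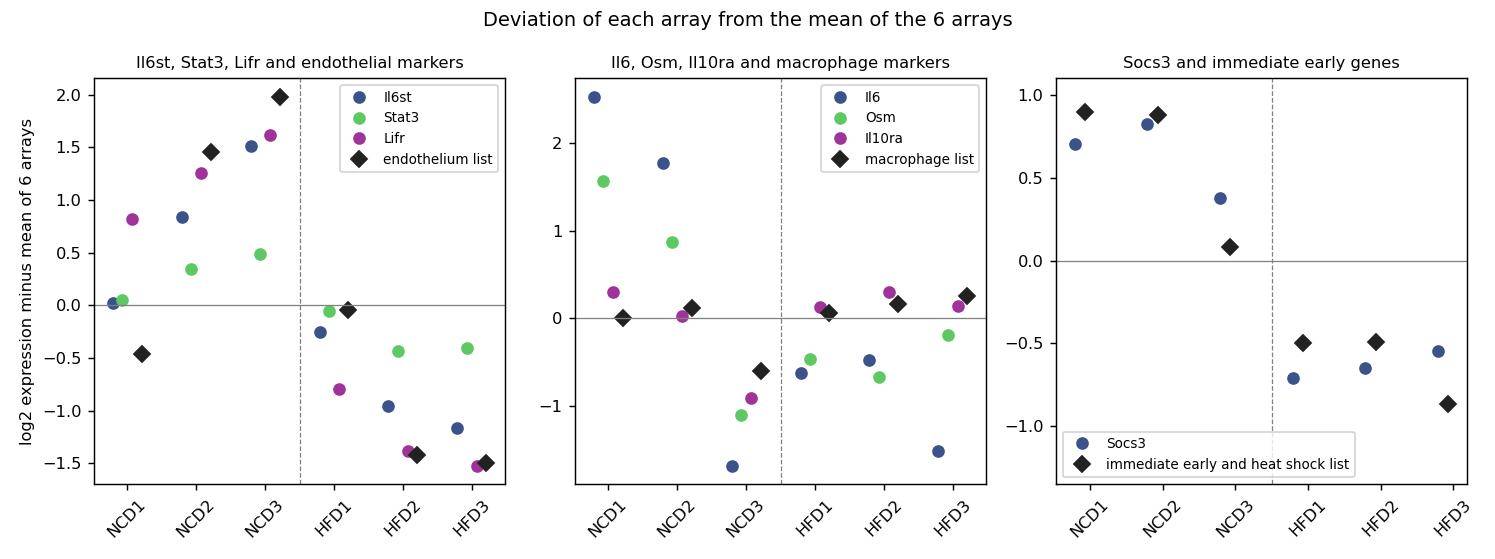
Deviation of each array from the mean of the 6 arrays, in log2, for selected genes (circles) and for the mean of a marker list (black diamonds), with NCD arrays left and HFD arrays right of the dashed line. Il6st, Stat3 and Lifr are highest on NCD3, as the endothelial list is, whereas Il6, Osm, Il10ra and the macrophage list are lowest there; Socs3 is above its mean on all NCD arrays and below it on all HFD arrays.

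**Figure D4:**
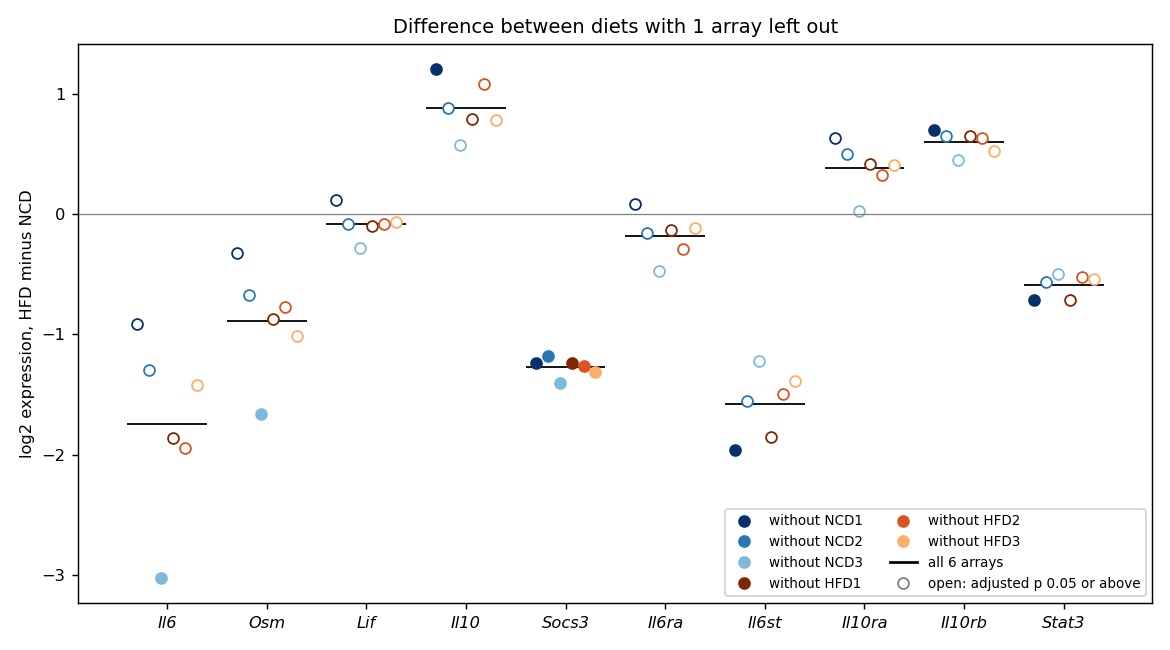
Difference between diets (log2 HFD minus NCD) for each of the 10 genes with all 6 arrays (bar) and with 1 array left out (points, coloured by that array); filled points have an adjusted p below 0.05. Socs3 is filled in all 6 fits, Il6 and Osm only without NCD3, and Il6st, Stat3, Il10 and Il10rb only without NCD1.

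Beyond the 10 genes, 86 of 93 other genes in 7 lists of the pathway were measured: 3 rose, 6 fell and 77 were not called, with a median of −0.07. The count of 9 was 19 without NCD1, 2 without NCD2 and 1 without HFD2 or HFD3. Of all genes, 7.83% were called with all 6 arrays, 4.96% higher and 2.87% lower. Without NCD1, NCD2, HFD2 or HFD3 the share of all genes was 15.6%, 1.57%, 1.47% and 1.51%. Among 10 other ligands and receptors of the interleukin-6 family, 1 fell and 9 were not called. That gene was Lifr, the receptor chain that pairs with gp130 to bind Lif. It stood at 13.42, 13.86 and 14.22 on NCD and at 11.81, 11.22 and 11.08 on HFD arrays, with a wide gap between the diets, and fell 5.52-fold (−2.46 ± 0.27, adjusted p = 0.00706). The call held without each array in turn, at −2.68 to −2.27. Osmr, the chain for oncostatin M, was at 11.09, 12.75 and 13.54 on NCD and at 11.83, 10.10 and 10.01 on HFD arrays. The diets overlapped, and Osmr was not called (−1.81 ± 0.73, adjusted p = 0.192), except without NCD1 (−2.50, adjusted p = 0.0416). Osmr ranked the 6 arrays exactly as the endothelial mean did, and Lifr exactly as Il6st and the smooth muscle and pericyte mean did. The part of these cells in the Osmr and Lifr values was not tested.

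Of 9 other interleukin-10 family genes, the receptor chain Il20rb fell (−0.69 ± 0.10, adjusted p = 0.0150) and 8 were not called; only Il20rb had a mean above background. Its call was lost without NCD2, HFD2 or HFD3. Of 8 Janus kinases and other STAT factors 0 were called in limma (2 lower at an unadjusted p below 0.05). Jak1, which serves both receptor families, was at −0.21 ± 0.10 (adjusted p = 0.250), Jak2 at −0.72 ± 0.19 (adjusted p = 0.0747, called with genes below background dropped) and Tyk2 at 0.26 ± 0.14 (adjusted p = 0.319).

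Of 16 inhibitors of JAK-STAT signalling other than Socs3, 1 fell and 15 were not called. Cish, a SOCS family member that restrains STAT5, fell by 0.62 ± 0.10 (adjusted p = 0.0185), but its mean lay below background, and the call was lost without NCD2, HFD2 or HFD3. Socs1, which restrains interferon signalling, was below background as well (−0.13 ± 0.13, adjusted p = 0.620). Of 4 shedding genes, Adam17, the protease that releases soluble interleukin-6 receptor and tumour necrosis factor, rose 1.66-fold (0.73 ± 0.13, adjusted p = 0.0261), at 12.58, 12.32 and 12.26 on NCD and 12.99, 13.16 and 13.22 on HFD arrays. The diets did not overlap, but Adam17 was called without NCD1 (0.83, adjusted p = 0.00975) and not without any other array (0.67 to 0.80).

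Of 22 measured STAT3 and interleukin-10 response genes, 2 rose, 1 fell and 19 were not called, with a median of −0.14. Differences were negative for 16 of the 22 (72.7%), beside 46.9% of all genes. Without NCD1, 4 were called higher and 4 lower, beside 15.6% of all genes. Without HFD2 or HFD3, 0 were called, beside 1.47% and 1.51% of all genes. Il1rn, the interleukin-1 receptor antagonist, rose 4.24-fold (2.09 ± 0.34, adjusted p = 0.0189), and Fcgr1, the high-affinity IgG receptor and itself a macrophage marker, rose 2.69-fold (1.43 ± 0.21, adjusted p = 0.0150). Cebpd, a C/EBP factor induced by STAT3, fell 3.87-fold (−1.95 ± 0.29, adjusted p = 0.0143). It stood at 8.83, 9.40 and 9.95 on NCD and at 7.72, 7.24 and 7.36 on HFD arrays. Cebpd was thus highest on NCD3, where the macrophage markers were lowest, and the part of other cells in its values was not tested. Il1rn and Cebpd lost their call without NCD2, HFD2 or HFD3, and Fcgr1 without HFD2 or HFD3, at differences of 1.76 to 2.40, −2.24 to −1.67 and 1.23 to 1.60 over all fits without 1 array.

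Of 17 regulators of Il6 and Il10 transcripts, 2 fell and 15 were not called. Dusp1, the phosphatase that ends p38 signalling, fell by 0.89 ± 0.13 (adjusted p = 0.0152), and Arid5a, which stabilises Il6 transcripts, fell by 0.53 ± 0.12 (adjusted p = 0.0449). Dusp1 is also on the immediate early list, and its call was lost without NCD2, HFD2 or HFD3. Arid5a kept its call without NCD1 and in no other fit without 1 array, and lost it with median centring and quantile normalization.

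The genes whose levels followed a pathway gene most closely over the 6 arrays are given as a description, since arrays of 1 diet share a level. For Socs3 they were Fcna, which encodes a ficolin (Pearson r = 0.9987), Gm16415 (0.9964) and Gm22934 (0.9948). For Il6st they were Atp8b2, Fbln2 and Enpp3, with r from 0.9992 to 0.9995. For Il6 they were Garnl3, Cd177 and Ptgis, with r from 0.9931 to 0.9958, and for Osm Gm15843, Sdhaf1 and Slc2a6, with r from 0.9917 to 0.9946.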

How the data were processed

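The values the authors deposited are log2 levels, 1 for each transcript cluster on each array; RMA, Transcriptome Analysis Console 3.1.0.5 and Affymetrix Expression Console 1.4.1.46 are named per the submitters' processing notes, while options and genome build are not given in the sources used here. From each pool, 100 ng of RNA was labelled, per the labels' protocols. Of 65956 transcript clusters, 30604 carried 1 symbol, 2146 several and 33206 none; symbols were updated through Entrez identifiers (827 changed), and the cluster with the highest mean was kept per gene. The 6732 control probe sets were left out; 23 antigenomic ones set the background level (95th percentile on each array, averaged). Diets were compared over all 30142 genes with limma 3.58.1 (lmFit, eBayes with trend, two-sided) in R 4.3.3, checked on simulated data. Figures used matplotlib 3.10.9. Arrays have no read depth; their number limits precision (median standard error 0.118).

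The genes, lists and rules were chosen with earlier results of these data known. Named were the 10 genes, the called genes of each pathway list, the analysed partners that bind a member or its product (some others are not reported here), and the 3 genes most like each called or most variable gene. The 15 alternatives covered scaling, dim genes, weights, the replicate number, the row per gene and each array left out. The labels call the pools biological replicates, and no scan date was given. Markers of monocytes, dendritic cells, neutrophils, mast cells, eosinophils, T and natural killer cells, B and plasma cells, endothelium, smooth muscle, fibroblasts, mesothelium and adipocytes were also measured.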

Additional observations from a re-analysis of the deposited data

How the results depend on the processing

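Over the 15 alternatives, the 10 genes gave 149 differences. Of these, 134 kept their direction and their side of the threshold, 11 passed it newly, 1 no longer passed it and 3 changed sign. Part of this agreement was fixed by the settings. Each of the 10 genes had 1 transcript cluster, so another row per gene could not change its difference. Fits without the variance trend, with dim genes dropped or with the replicate block could change only the adjusted p. The sign changes were Il6ra without NCD1 and Lif without NCD1 and with median centring (0.0076); over fits without 1 array Il6ra ran from −0.47 to 0.086 and Lif from −0.28 to 0.12. The number called among the 10 was 2 with median centring (10.8% of all genes), 2 with genes below background dropped (18.4%), 4 with array weights (14.2%) and 1 to 5 without 1 array (5 without NCD1, 3 without NCD3). Over all genes 4282 were called with array weights and 442 to 4713 without 1 array, and among the other pathway genes 15 with array weights and 1 to 19 without 1 array. With the lowest 25% of means dropped, without the variance trend, with quantile normalization or with another row per gene, the number called stayed within 1.5 times for all 3 counts.

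Pools of both diets are numbered 1 to 3, but same-numbered pools did not deviate together (r = −0.549, −0.207 and −0.197 over genes above background), so the numbers were not taken as pairs. With the replicate number as a block 144 genes were called in all; 0 of the 10 genes (5 at an unadjusted p below 0.05) and 0 of the other pathway genes (17) were, beside 19.7% of all genes at an unadjusted p below 0.05, with Socs3 at an adjusted p of 0.0591 and Lifr at 0.0647. That fit has fewer residual degrees of freedom. Fits without 1 array also do, so a call lost there need not mean a smaller difference. Lif, Cish, Socs1 and 4 mesothelial markers lay below background, where differences are uncertain.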

Other observations

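Other cell types in the selected fraction differed between the diets as follows. Of 9 smooth muscle and pericyte markers 7 fell and 2 were not called, with list means of 10.60 to 12.55 on NCD and 8.04 to 9.18 on HFD arrays. Of 8 fibroblast and adipose progenitor markers 5 rose and the other 3 did not pass the test, with 0 falls (5 higher and 2 lower at an unadjusted p below 0.05). Of 7 mast cell markers 4 rose and 3 were not called, and of 4 monocyte markers 1 fell and 3 were not called. B and plasma cell markers averaged 10.39 on NCD1 and 7.93 to 8.75 on the other 5 arrays, with 0 of 5 called in limma (1 lower at an unadjusted p below 0.05). Dendritic cell markers had 1 of 7 lower (Cd209a). Eosinophil markers had 1 of 5 higher (Ccr3), while differences were negative for 4 of the 5. T and natural killer cell markers had 1 of 8 higher (Il7r), while differences were negative for 3 of the 8. Neutrophil markers had 0 of 8 and adipocyte markers 0 of 6 called (0 and 2 at an unadjusted p below 0.05 in limma).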
